A study of Homo sapiens with 48 samples.

Results

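PHGDH, PSAT1, PSPH, SHMT2, MTHFD2, MTHFD1L, ALDH1L2, ASNS, PYCR1 and ALDH18A1 encode enzymes that build serine, asparagine and proline and that carry the carbon of serine into folate. They were taken by gene symbol, with no threshold on any value, and make up 10 of the 61817 rows of the count table and 10 of the 20009 genes that were tested. All 10 passed the filter on low counts. RNA came from 48 cultures, 16 groups of 3 biological replicates, of the castration-resistant prostate cancer line 22Rv1. The parental cells are called Rv1-WT, and Rv1-Luc are the same cells after lentiviral transduction with firefly luciferase. These 2 were kept in regular fetal bovine serum (FBS) or in serum stripped with charcoal (CSS) to remove androgen, into which cells were passaged 1 time beforehand. The dKO lines were grown in FBS and lack the endogenous Mediator kinases CDK8 and CDK19 after CRISPR/Cas9 knockout. They carry a lentiviral wild-type CDK8 (dKO-8) or CDK19 (dKO-19), or the D173A kinase-dead form of each (dKO-8M, dKO-19M). Each dKO line was made by a single transduction series, dKO-8 and dKO-8M from cells that already held an empty vector, so that a difference between an active line and its kinase-dead partner cannot be told apart from a difference between the 2 cell populations. Every line and medium was treated for 72 h with 500 nM SNX631, a selective inhibitor of CDK8 and CDK19, or with 0.1% DMSO as vehicle.

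PHGDH draws 3-phosphoglycerate out of glycolysis, PSAT1 transaminates its product, and PSPH releases serine. In mitochondria SHMT2 passes a carbon of serine to tetrahydrofolate and leaves glycine, MTHFD2 oxidises the folate that results, MTHFD1L releases the carbon as formate, and ALDH1L2 burns it to carbon dioxide while making NADPH. ASNS makes asparagine from aspartate and glutamine, ALDH18A1 turns glutamate into the precursor of proline, and PYCR1 performs the last reduction to proline. Most of these genes are textbook targets of ATF4, the transcription factor whose translation rises when amino acids run short. ATF4 pairs with C/EBP proteins on C/EBP-ATF response elements, and the element of the ASNS promoter is the classical example.

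The promoter sequences are shown because the ASNS response element lies among them and ASNS had the lowest log2 fold change of the 10 genes in most drug comparisons below. Windows of RefSeq (GRCh38.p14) were found for 6 of the 10 genes (PHGDH, PSAT1, MTHFD2, MTHFD1L, ASNS and ALDH18A1). Their 250 bases before each start were searched on both strands for TGATGNAA, the core letters of the element, where N is any base. ASNS and MTHFD1L held a match in at least 1 window, against 3.89% of the 27305 genes with windows and 3.14% of all 35116 windows. The ASNS element was known beforehand, so its match is no test against these shares. Both genes had more than 1 window, which gives more places for a match. The sequences below run 5′ to 3′ on the strand of the gene, with the match in capitals.
ASNS, chr7:97872458-97872487, minus strand: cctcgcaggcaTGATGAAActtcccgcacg
MTHFD1L, chr6:150866346-150866375, plus strand: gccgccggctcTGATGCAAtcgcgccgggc
The ASNS match began 68 bases before the start of its window and lay in the untranslated part of an exon of 1 of the 7 ASNS transcripts of GENCODE v29. The MTHFD1L match began 129 or 90 bases before the start, depending on the window, and lay in an exon of 1 of 4 transcripts, with no coding sequence. A match describes letters in a window and was not tested as a bound site.

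In GENCODE v29 (GRCh38) the serine genes lie at chr1:119648411-119744226 (PHGDH, plus strand), chr9:78297143-78330093 (PSAT1, plus) and chr7:56011051-56051604 (PSPH, minus). The mitochondrial folate genes lie at chr12:57229327-57234935 (SHMT2, plus), chr2:74198562-74217565 (MTHFD2, plus), chr6:150865549-151101887 (MTHFD1L, plus) and chr12:105019784-105084577 (ALDH1L2, minus). ASNS lies at chr7:97852118-97872542 (minus), PYCR1 at chr17:81932384-81942412 (minus) and ALDH18A1 at chr10:95605929-95656706 (minus). Levels below are counts per M counts of the library after scaling by the trimmed mean of M values (CPM), and a log2 fold change comes from edgeR's quasi-likelihood test over all tested genes. A gene was called when its false discovery rate (FDR) was under 0.01 and its fold change over 1.5, which is 0.585 on the log2 scale. Fewer cells making an RNA and less RNA per cell cannot be told apart in these bulk libraries.

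Library totals ran from 13.2 to 18.2 M counts in Rv1-WT, from 19.5 to 27.3 M in Rv1-Luc and from 19.3 to 31.5 M in the dKO lines. CDK8 RNA had a median of 27 CPM in Rv1-WT, 67.3 with wild-type CDK8 and 126 with its kinase-dead form, and CDK19 RNA 200 CPM in Rv1-WT, 500 with wild-type CDK19 and 349 with its kinase-dead form. The RNA of the re-expressed kinase was thus above the parental level in each dKO line, with unequal levels of the active and kinase-dead forms. RNA does not measure the amount of kinase protein. By Western blot the study reported less CDK8 in dKO-8 than in parental cells, and much more CDK19 in dKO-19 and dKO-19M. RNA of the knocked-out gene that was not put back was still counted (26.7 CPM of CDK8 in dKO-19), so these totals do not test the knockout. Counts of ASNS were fractional in 58.3% of libraries and those of SHMT2 in 45.8%. How reads shared with other genes were counted is not stated. Adding the counts of pseudogenes kept 45 of the 46 calls below. All 8 luminal prostate markers were detected, with a summed level of 2260 to 5300 CPM. The highest means over all libraries were those of the keratins KRT8 (1717 CPM) and KRT18 (579 CPM). In dKO-8M and in dKO-19M 7 of the 8 had a mean of at least 1 CPM. Markers of fibroblasts, endothelium and leukocytes summed to at most 11.1 CPM in any library. Plasma cell markers (3 genes) summed to 1.07 to 10.9 CPM in Rv1-Luc and to at most 0.702 CPM in all other lines. In 2 groups replicate 1 stood apart over the genes with enough counts, by chi-square per degree of freedom between replicates (higher is less alike). It was 17.7 and 17 for replicate 1 of dKO-19M under vehicle and 1.45 for the other pair. In Rv1-Luc in FBS under vehicle it was 9.69 and 5.14, and 3.2 for the other pair. The summed CPM of the 10 genes was 1797, 2357 and 2113 in that Rv1-Luc group. ALDH1L2 had 107 CPM in replicate 1 of dKO-19M under vehicle beside 144 and 146. Every comparison with either group uses its replicate 1.

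The levels of the 10 genes spanned a wide range. Per kilobase of exon, in Rv1-WT in FBS under vehicle, SHMT2 was highest at 270 CPM per kb, followed by PSAT1 at 244, PHGDH at 169, MTHFD2 at 111, PYCR1 at 104 and ASNS at 101. ALDH18A1 stood at 58.6 CPM per kb, PSPH at 46.6, ALDH1L2 at 38.8 and MTHFD1L at 16.2. In the same libraries, and not corrected for length, SHMT2 had 818 CPM ± 19.0 (SD, n = 3) and its cytosolic counterpart SHMT1 96.3 ± 2.77. ALDH1L2 had 293 CPM ± 6.68, while cytosolic ALDH1L1 was close to 0 at 0.239 ± 0.156. PYCR1 had 238 CPM ± 6.81, and its paralog PYCR3 had 43.0 ± 0.693.

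**Figure D1:**
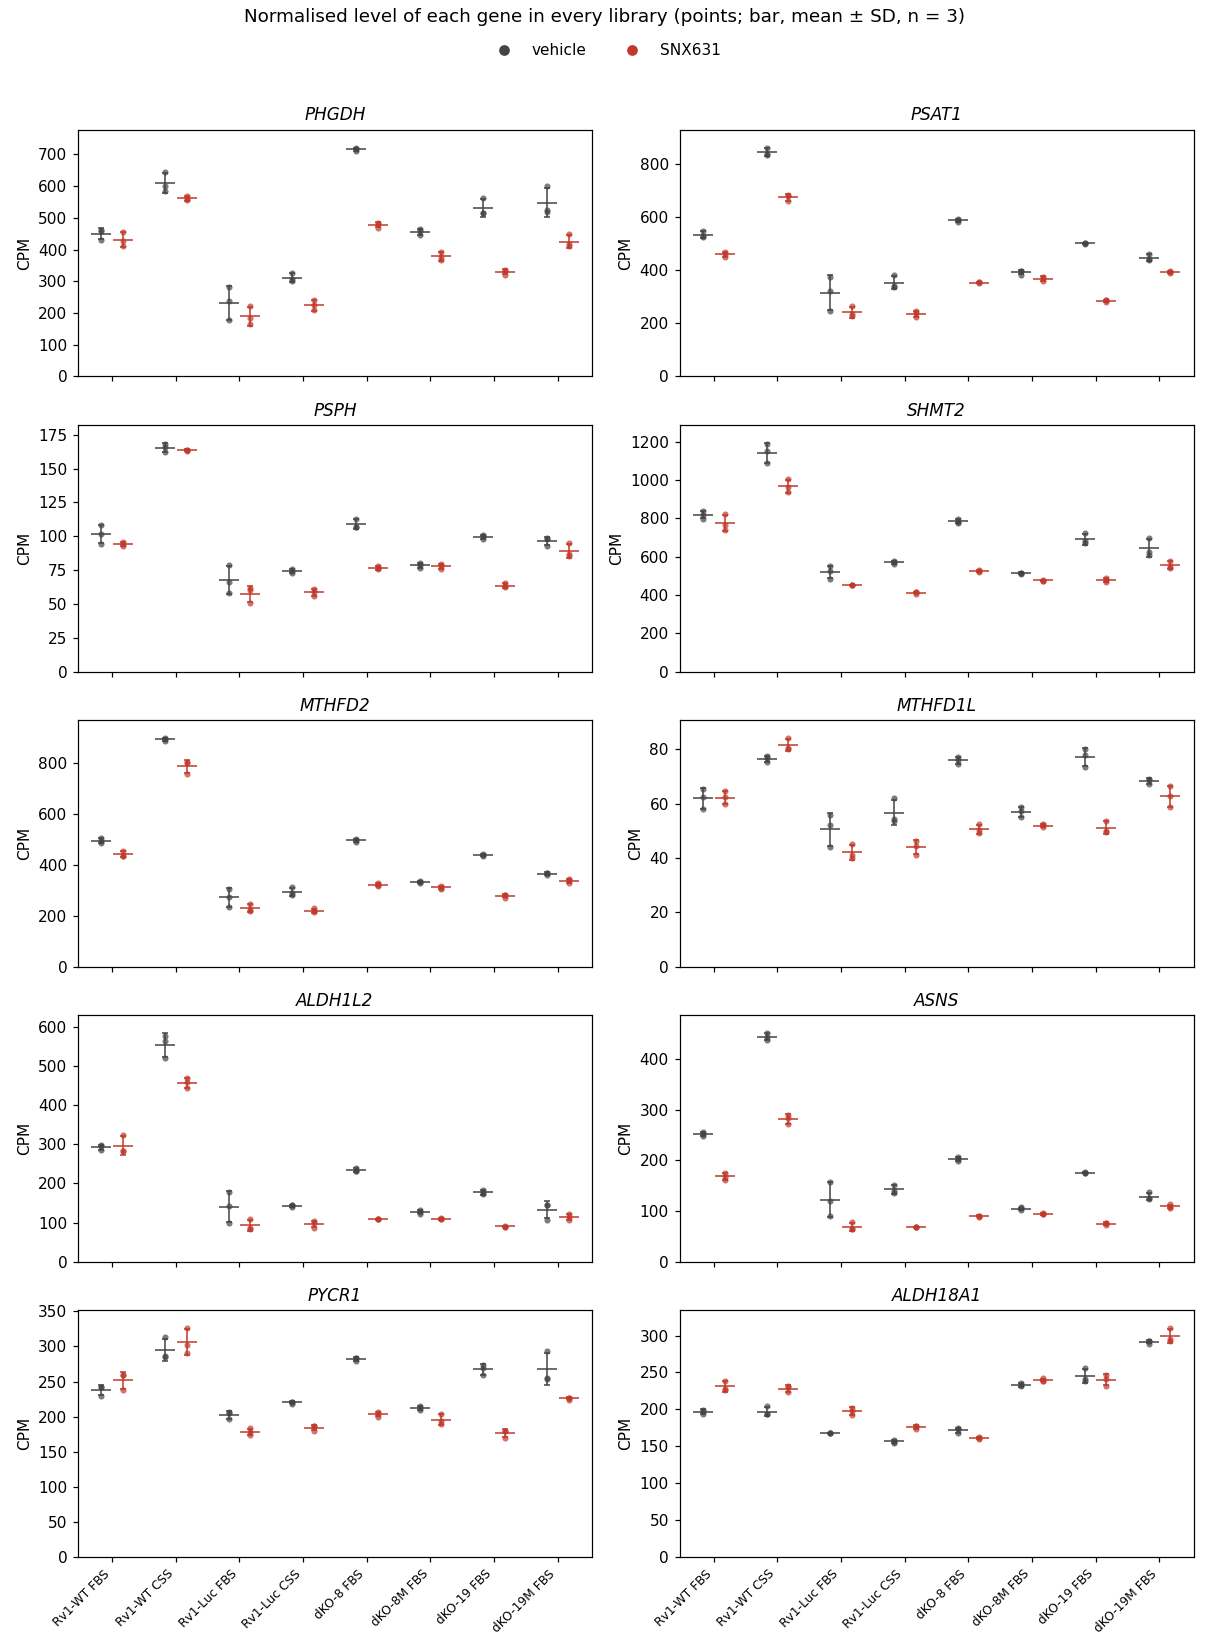
Normalised level (CPM, linear axis from 0) of each gene in all 48 libraries, by line and medium, with vehicle in grey and SNX631 in red. Points are libraries and bars the mean ± SD of 3. ASNS was highest in Rv1-WT in CSS under vehicle (438 to 451 CPM) and lowest in Rv1-Luc under SNX631, whereas ALDH18A1 was highest in dKO-19M (292 and 299 CPM).

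The 10 genes had their lowest medians under SNX631 in the lines with 1 active kinase. In dKO-8, SNX631 lowered 5 of the 10 genes (ASNS, ALDH1L2, PSAT1, MTHFD2 and MTHFD1L) and raised none, where 1.05% of all tested genes were called lower. In dKO-19 it lowered 8 (the same 5 together with PHGDH, PSPH and PYCR1) and again raised none, where 1.53% of all tested genes were called lower. The median log2 fold change of the 10 genes was -0.58 in dKO-8 and -0.65 in dKO-19, beside 0 and -0.00172 over all tested genes.

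ASNS, the asparagine synthetase, fell most. It had 203, 206 and 198 CPM in dKO-8 under vehicle and 90.8, 89.2 and 91 under SNX631. The libraries of the 2 groups were far apart, with a log2 fold change of -1.16 ± 0.0932 (SE), a 2.24-fold reduction with an FDR of 1.11e-11. In dKO-19 it had 175, 176 and 177 CPM under vehicle and 72.9, 76.1 and 77.1 under SNX631, which is a 2.34-fold reduction (log2 -1.22 ± 0.0955, FDR 2.57e-12).

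ALDH1L2, which makes mitochondrial NADPH from folate, came next. Its levels were 231, 232 and 239 CPM in dKO-8 under vehicle and 108, 109 and 108 under SNX631 (log2 -1.12 ± 0.118, FDR 9.34e-09). In dKO-19 they went from 173, 184 and 176 to 92.5, 89.3 and 89.9 CPM (log2 -0.97 ± 0.121, FDR 1.27e-07). Groups did not overlap in either line.

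Among the serine genes PSAT1 was lowered in both lines. It had 589, 590 and 579 CPM in dKO-8 under vehicle and 354, 356 and 350 under SNX631 (log2 -0.73 ± 0.0702, FDR 3.13e-10), and 500, 501 and 499 against 280, 287 and 286 CPM in dKO-19 (log2 -0.81 ± 0.0709, FDR 1.24e-11). PHGDH, the entry enzyme, had 718, 710 and 719 CPM in dKO-8 under vehicle and 468, 482 and 484 under SNX631. At log2 -0.58 this fell just short of the fold limit and was not called (FDR 2.43e-05), while the change in dKO-19 was called (563, 514 and 515 to 321, 331 and 336 CPM, log2 -0.69 ± 0.0949, FDR 8.48e-07). PSPH showed the same division, with log2 -0.51 in dKO-8 (FDR 3.13e-10, not called) and -0.65 in dKO-19 (FDR 1.55e-13, called). The difference between the responses of dKO-19 and dKO-8 was itself called for none of the 10 genes, with values of -0.14 to 0.14 on the log2 scale (0.885% of all tested genes called in either direction). By the same edgeR test 1 of the 10 had an unadjusted p under 0.05, and DESeq2 called 0. The widest of the intervals was that of ALDH1L2, from -0.187 to 0.473 (95% interval).

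The log2 values of the other mitochondrial folate genes were nearer to 0 than that of ALDH1L2. MTHFD2 went from 491, 502 and 497 CPM to 321, 330 and 317 in dKO-8 (log2 -0.62 ± 0.0473, FDR 6.77e-16) and from 440, 443 and 437 to 271, 283 and 282 in dKO-19 (log2 -0.66 ± 0.0476, FDR 2.98e-17). MTHFD1L, the least abundant of them, stood at log2 -0.59 in dKO-8 and -0.60 in dKO-19, and both calls rest on single libraries. The call in dKO-8 was lost without replicate 1 or 3 of either treatment (-0.611 to -0.566 over the 6 fits), and that in dKO-19 without vehicle replicate 2 or SNX631 replicate 1 or 2 (-0.632 to -0.57). SHMT2 was at -0.58 and -0.53, under the fold limit in both lines although its FDR was 4.74e-17 and 5.28e-16. Many of the 10 values thus lay close to the limit on one side or the other.

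The proline genes parted ways. PYCR1 had log2 -0.47 ± 0.043 in dKO-8 (FDR 4.42e-13, not called) and -0.60 ± 0.0435 in dKO-19, where 269, 259 and 274 CPM under vehicle stood against 170, 180 and 180 under SNX631 (FDR 3.39e-17, called). The call in dKO-19 was lost without vehicle replicate 3 or SNX631 replicate 1 (-0.622 to -0.571 over 6 fits). ALDH18A1, the step before it, had 168, 174 and 173 CPM against 160, 162 and 161 in dKO-8 (log2 -0.09, FDR 0.0577) and 256, 239 and 241 against 232, 247 and 241 in dKO-19 (log2 -0.03, FDR 0.625, interval -0.094 to 0.0371).

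SNX631 was also given to the kinase-dead lines. A difference in response from the active lines cannot be told apart from one between the cell populations. SNX631 changed 0 of the 10 genes by the call rule in dKO-8M, where 0.015% of all tested genes were called in either direction, and 0 in dKO-19M, where 0.09% were called. The counts at an unadjusted p under 0.05 in edgeR were 4 and 8, and DESeq2 called 0 in both. ASNS had 107, 103 and 105 CPM in dKO-8M under vehicle and 93.2, 94 and 95.7 under SNX631 (log2 -0.15, FDR 0.659). In dKO-19M it had 137, 125 and 124 against 113, 108 and 106 (log2 -0.24, FDR 0.19). PHGDH had the lowest value in both, log2 -0.27 in dKO-8M and -0.37 in dKO-19M (FDR 0.259 and 0.0267). In dKO-19M, PYCR1 at log2 -0.24 (FDR 0.000349) and SHMT2 at -0.21 (FDR 0.00146) had an FDR under 0.01 with a fold under the limit, whereas no gene did in dKO-8M. The values of 9 of the 10 genes were negative in both lines, and that of ALDH18A1 was 0.04 in each.

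The difference between the active and the kinase-dead response was tested directly. For CDK8 it was called for 3 genes, all more negative in dKO-8 (0.555% of all tested genes were called in that direction): ASNS at log2 -1.01 ± 0.133 (FDR 2.47e-06), ALDH1L2 at -0.89 ± 0.168 (FDR 0.000528) and PSAT1 at -0.64 ± 0.0992 (FDR 2.66e-05). For CDK19 the same 3 genes were called (0.84% of all tested genes in that direction), with -0.99 ± 0.133 for ASNS (FDR 1.63e-06), -0.75 ± 0.17 for ALDH1L2 (FDR 0.00251) and -0.63 ± 0.0995 for PSAT1 (FDR 1.81e-05). ALDH1L2 in the CDK19 lines rests on few libraries: without replicate 1 of dKO-19M under vehicle or replicate 2 of dKO-19M under SNX631 its call was lost, and the values over single left-out libraries ran from -0.828 to -0.624. MTHFD2, PSPH, MTHFD1L, SHMT2 and PYCR1 had differences of -0.32 to -0.54 in the 2 pairs of lines, each with an FDR under 0.01 and a fold under the limit. PHGDH differed by -0.31 and -0.32 (FDR 0.184 and 0.136) and ALDH18A1 by -0.13 and -0.06 (FDR 0.0835 and 0.463).

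**Figure D2:**
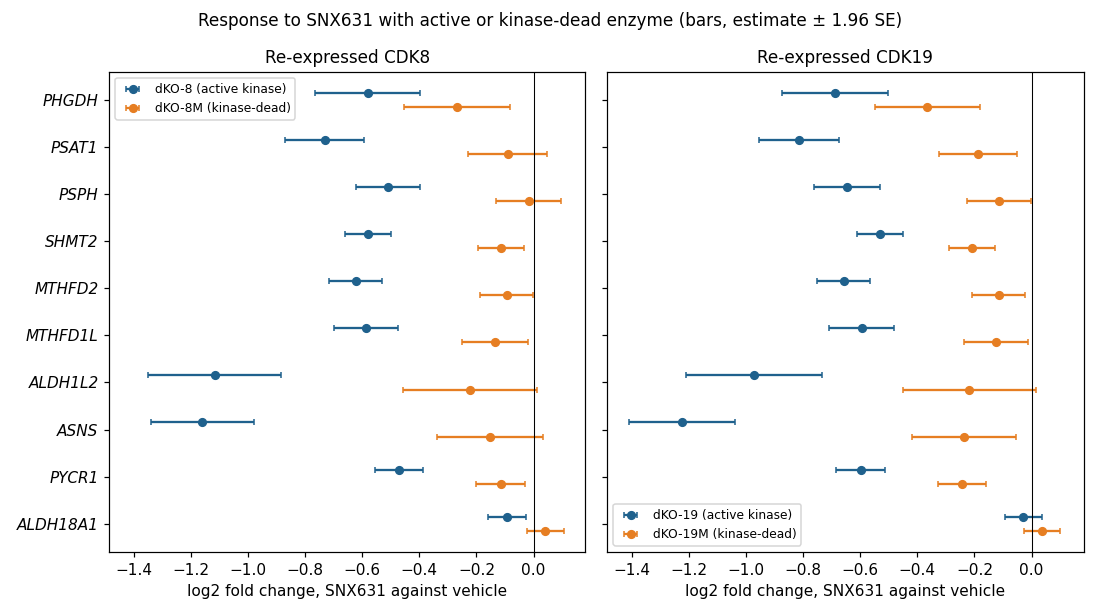
log2 fold change of each gene under SNX631 against vehicle (x axis) in lines with active (blue) or kinase-dead (orange) CDK8, left, and CDK19, right. Points are edgeR estimates and bars 95% intervals. The blue points of ASNS lie at -1.16 and -1.22 and the orange ones at -0.15 and -0.24, while both colours of ALDH18A1 lie within 0.1 of 0.

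The kinase-dead and active CDK8 lines were also compared without the drug, as dKO-8M against dKO-8 under vehicle. This comparison shares the dKO-8 vehicle libraries with the drug comparison above. It cannot separate loss of kinase activity from a difference between the cell populations. Levels of CDK8 RNA were also unequal, with a median over the libraries of each line of 67.3 CPM in dKO-8 and 126 in dKO-8M. In dKO-8M 4 of the genes were lower (PHGDH, SHMT2, ALDH1L2 and ASNS), where 4.07% of all tested genes were called lower. ASNS was at 107, 103 and 105 CPM in dKO-8M and 203, 206 and 198 in dKO-8 (log2 -0.95 ± 0.0922, FDR 2.76e-10). ALDH1L2 was at 133, 123 and 128 CPM against 231, 232 and 239 (log2 -0.87 ± 0.117, FDR 2.99e-07). PHGDH was at log2 -0.65 (FDR 1.07e-06) and SHMT2 at -0.61 (FDR 8.09e-19). PSAT1 and MTHFD2 lay just under the fold limit at -0.58 each, and ALDH18A1 went the other way at 0.44 ± 0.0338 (233, 231 and 236 CPM against 168, 174 and 173, FDR 1.13e-16, not called).

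Under SNX631 the gap between dKO-8M and dKO-8 was small for 8 of the 10 genes, whose log2 fold changes lay between -0.14 and 0.06. None of the 10 was called, against 5.05% of all tested genes in either direction. Unadjusted p was under 0.05 in edgeR for 3 genes, and DESeq2 called 0. ASNS had 93.2, 94 and 95.7 CPM in dKO-8M and 90.8, 89.2 and 91 in dKO-8 (log2 0.06, interval -0.126 to 0.249). The exceptions were PHGDH at -0.34 and ALDH18A1 at 0.58, the latter 1.49-fold higher in dKO-8M with an FDR of 3.74e-21.

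The same comparisons were made in the CDK19 lines, and their difference from those of the CDK8 pair was not tested. In dKO-19M against dKO-19 under vehicle no gene was called, where 7.6% of all tested genes were called in either direction (7 genes with an unadjusted p under 0.05 in edgeR, 0 called by DESeq2). ASNS was at 137, 125 and 124 CPM in dKO-19M and 175, 176 and 177 in dKO-19 (log2 -0.45, FDR 0.000157), and PHGDH at 600, 518 and 525 against 563, 514 and 515 (log2 0.05, FDR 0.765). With SNX631 all 10 values were positive, from 0.22 for SHMT2 to 0.53 for ASNS. None was called, by edgeR (7.18% of all tested genes in either direction) or by DESeq2. All 10 had an unadjusted p under 0.05 in edgeR. At an FDR under 0.05 with no fold limit 10 of the 10 passed, as did 30.7% of all tested genes. ASNS was then at 113, 108 and 106 CPM in dKO-19M against 72.9, 76.1 and 77.1 in dKO-19, which do not overlap (FDR 4.47e-05).

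In cells with both endogenous kinases ASNS had the lowest log2 values. In Rv1-WT in FBS it had 251, 248 and 256 CPM under vehicle and 175, 162 and 168 under SNX631, a 1.49-fold reduction that stopped just short of the fold limit (log2 -0.58 ± 0.0918, FDR 1.51e-05). None of the 10 genes was called there, beside 2.39% of all tested genes in either direction (4 with an unadjusted p under 0.05 in edgeR, 0 called by DESeq2). In Rv1-WT in CSS 1 gene was called, beside 1.25% of all tested genes called lower. That was ASNS, with 438, 443 and 451 CPM against 271, 283 and 289 (log2 -0.66 ± 0.088, FDR 3.69e-07). PSAT1, SHMT2 and MTHFD2 were lower by 0.18 to 0.32 on the log2 scale in CSS with FDR under 0.01, and PHGDH, PSPH, MTHFD1L and PYCR1 lay between -0.12 and 0.09. ALDH1L2 passed the FDR limit in neither medium. It was at log2 -0.28 in CSS (FDR 0.0647), where the groups did not overlap, and 0.02 in FBS (FDR 0.947).

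In Rv1-Luc the values ran lower. ASNS and ALDH1L2 were called in FBS, beside 1.34% of all tested genes called lower. ASNS had 90.4, 158 and 119 CPM under vehicle and 64.3, 78.1 and 64.9 under SNX631 (log2 -0.82 ± 0.0956, FDR 2.83e-08). The vehicle libraries were widely spread but all above the treated ones. ALDH1L2 had 99.8, 179 and 142 against 86.5, 110 and 83.3 CPM, and these groups overlap (log2 -0.59 ± 0.12, FDR 0.000377). Its call was lost without vehicle replicate 2 or 3 or SNX631 replicate 1 or 3 (-0.783 to -0.371 over 6 fits), and with only these 6 libraries in the fit neither gene was called.

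Rv1-Luc in CSS gave ASNS as the only call, beside 1.61% of all tested genes called lower. It had 152, 140 and 136 CPM under vehicle and 69.1, 68.5 and 68.8 under SNX631 (log2 -1.05 ± 0.0963, FDR 1.19e-10). Of the others, PSAT1 stood at log2 -0.58 and ALDH1L2 at -0.58, just under the limit. With the replicate number as a block 3 genes were called, and with only the comparison's own libraries 2. SHMT2 was at -0.47, PHGDH at -0.47, MTHFD2 at -0.42 and MTHFD1L at -0.37, each with an FDR under 0.01.

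ALDH18A1 was higher under SNX631 in all 4 settings of Rv1-WT and Rv1-Luc, by 0.17 to 0.23 on the log2 scale. In Rv1-WT in FBS it had 198, 199 and 193 CPM under vehicle and 239, 228 and 226 under SNX631 (FDR 5.83e-07), and in Rv1-Luc in FBS 168, 168 and 168 against 192, 198 and 202 (FDR 2.04e-07). These groups do not overlap, and the sizes were under the fold limit. The sign was opposite to that of ASNS in each of these 4 comparisons.

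The drug response was also compared between the 2 media and the 2 sublines. None of the 10 genes was called for the response in CSS less that in FBS, in Rv1-WT (0.295% of all tested genes in either direction, 1 of the 10 with an unadjusted p under 0.05 in edgeR) or in Rv1-Luc (0.08%, 2 of the 10). Nor was any called for the response of Rv1-Luc less that of Rv1-WT in FBS (0.175%, 4 of the 10). DESeq2 called 0 in each of the 3. ALDH1L2 had the largest of the differences between sublines, log2 -0.61 ± 0.166 (FDR 0.0561). Without replicate 1 of Rv1-Luc in FBS under vehicle 1 of the 10 genes was called. PYCR1 differed by -0.27 ± 0.0616 (FDR 0.00989), from 0.08 in Rv1-WT to -0.18 in Rv1-Luc.

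**Figure D3:**
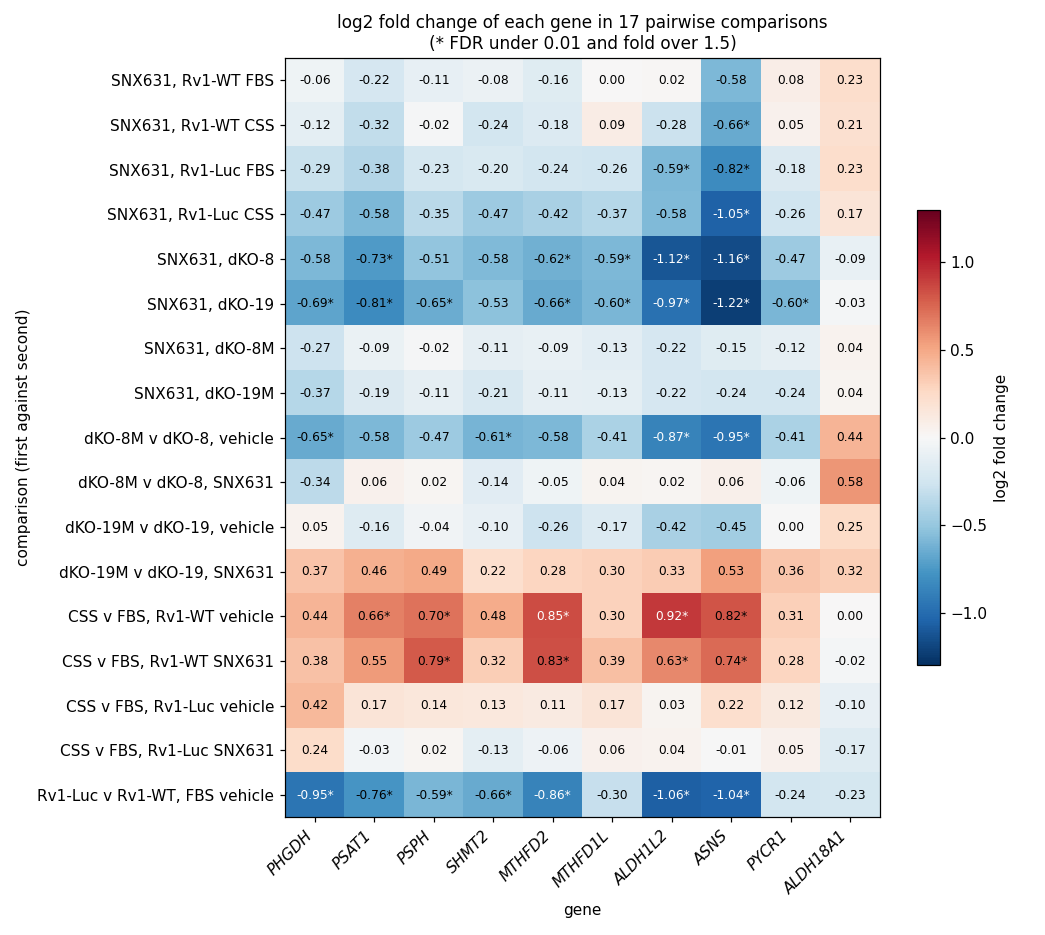
log2 fold change of each gene (columns) in the 17 pairwise comparisons (rows), with blue for lower and red for higher in the condition named first and a star where the gene was called. The rows of dKO-8 and dKO-19 under SNX631 hold 5 and 8 stars, and the rows of dKO-8M and dKO-19M under SNX631 hold none.

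Androgen-depleted serum went with higher levels in Rv1-WT. There 5 of the 10 genes were higher in CSS than in FBS under vehicle (ALDH1L2, MTHFD2, ASNS, PSPH and PSAT1), where 6.09% of all tested genes were called higher, and none was lower. The median of the 10 was 0.57 on the log2 scale, against 0.00709 over all tested genes. ALDH1L2 had 298, 295 and 285 CPM in FBS and 578, 564 and 520 in CSS (log2 0.92 ± 0.113, FDR 2.47e-08). MTHFD2 had 495, 485 and 506 in FBS and 899, 888 and 894 in CSS (log2 0.85 ± 0.0471, FDR 1.09e-22).

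ASNS rose from 251, 248 and 256 CPM to 438, 443 and 451 (log2 0.82 ± 0.0889, FDR 1.45e-09). PSPH rose from 102, 94.5 and 108 to 166, 162 and 168 (log2 0.70 ± 0.0568, FDR 5.18e-16) and PSAT1 from 526, 527 and 547 to 836, 831 and 859 (log2 0.66 ± 0.07, FDR 4.04e-10). SHMT2 (0.48), PHGDH (0.44), PYCR1 (0.31) and MTHFD1L (0.30) had an FDR under 0.01 with folds under the limit. ALDH18A1 was level, with 198, 199 and 193 CPM in FBS and 194, 193 and 204 in CSS (log2 0.00, interval -0.0675 to 0.0678). The same contrast under SNX631 called 4 genes higher, all of them among the 5 above and without PSAT1 (log2 0.55), beside 4.86% of all tested genes called higher.

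Rv1-Luc did not show these calls. None of the 10 genes was called between CSS and FBS under vehicle (1.49% of all tested genes in either direction, 9 of the 10 with an unadjusted p under 0.05 in edgeR) or under SNX631 (1.51%, 3 of the 10), and DESeq2 called 0 in both. MTHFD2 had 236, 307 and 273 CPM in FBS and 312, 282 and 289 in CSS, which overlap. ASNS had 90.4, 158 and 119 against 152, 140 and 136. Under vehicle PHGDH alone had an FDR under 0.01, at log2 0.42 ± 0.0959 (FDR 0.00206), and under SNX631 ALDH18A1 alone, at -0.17 ± 0.0338 (FDR 0.0003).

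The CSS response of Rv1-Luc less that of Rv1-WT was called for 3 genes, beside 4.04% of all tested genes in the same direction. These were ALDH1L2 at log2 -0.89 ± 0.163 (FDR 4.97e-05), MTHFD2 at -0.74 ± 0.0669 (FDR 1.45e-13) and ASNS at -0.60 ± 0.128 (FDR 0.000323). The ASNS call was lost in 5 of 12 fits with 1 library left out (-0.775 to -0.368): vehicle replicate 2 of Rv1-WT in FBS, 3 of Rv1-WT in CSS, 2 of Rv1-Luc in FBS, or 2 or 3 of Rv1-Luc in CSS. Without replicate 1 of Rv1-Luc in FBS under vehicle 5 genes were called. PSPH (-0.56) and PSAT1 (-0.49) had an FDR under 0.01 under the fold limit, and PHGDH did not differ detectably (-0.02, interval -0.281 to 0.246).

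**Figure D4:**
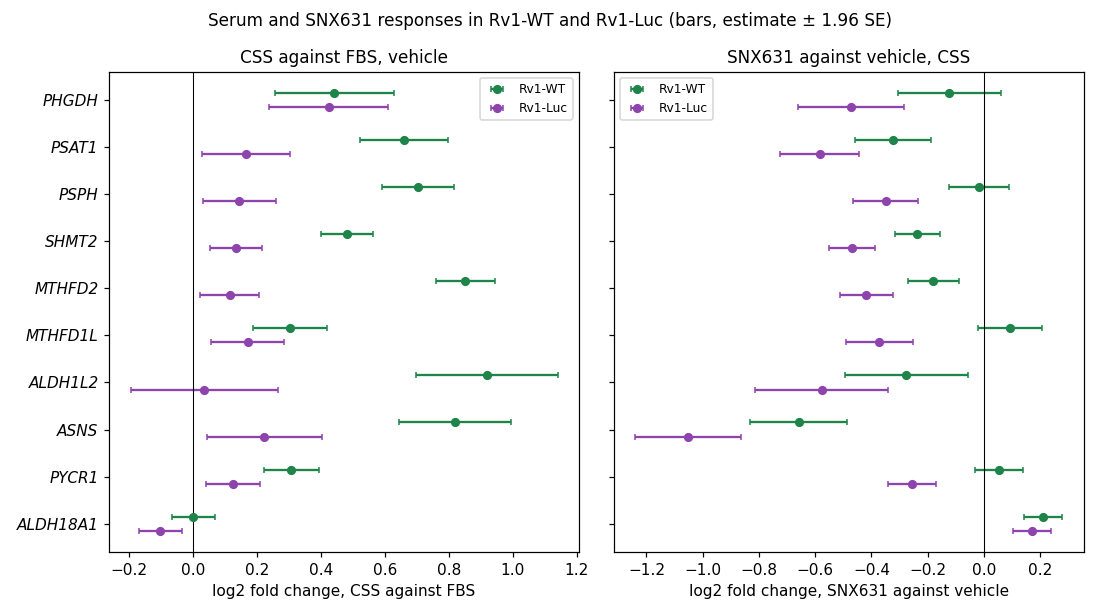
log2 fold change of each gene in Rv1-WT (green) and Rv1-Luc (purple), for CSS against FBS under vehicle on the left and SNX631 against vehicle in CSS on the right. Points are edgeR estimates and bars 95% intervals. On the left MTHFD2 lies at 0.85 in Rv1-WT and 0.11 in Rv1-Luc, and PHGDH at 0.44 and 0.42.

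Without drug or CSS the sublines already differed. In FBS under vehicle 7 genes were lower in Rv1-Luc than in Rv1-WT (ALDH1L2, ASNS, PHGDH, MTHFD2, PSAT1, SHMT2 and PSPH), beside 9.16% of all tested genes called lower. ALDH1L2 was at 99.8, 179 and 142 CPM in Rv1-Luc and 298, 295 and 285 in Rv1-WT (log2 -1.06 ± 0.117, FDR 2.11e-09), and PHGDH at 177, 283 and 238 against 463, 429 and 457 (log2 -0.95 ± 0.0965, FDR 3.16e-10). MTHFD1L, PYCR1 and ALDH18A1 were at -0.23 to -0.30. With only these 6 libraries in the fit 2 genes were called (SHMT2 and MTHFD2). PSPH lost its call without replicate 3 of Rv1-WT or replicate 1 or 3 of Rv1-Luc (-0.716 to -0.493 over 6 fits). The sublines also differed in depth and in plasma cell markers, as given above, and the part of these in the difference was not tested.

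The levels of ASNS can be put in order over all 16 groups. It was highest in Rv1-WT in CSS under vehicle at 444 CPM ± 6.27 (SD, n = 3), then 281 ± 9.41 in the same medium under SNX631 and 252 ± 3.82 in FBS under vehicle. No library of these 3 groups overlapped the next in order. It was 202 ± 4.03 in dKO-8 and 176 ± 1.37 in dKO-19 under vehicle, and 168 ± 6.29 in Rv1-WT in FBS under SNX631, of which the last pair met at 175 CPM. Then followed Rv1-Luc in CSS (143 ± 8.28), dKO-19M (129 ± 7.17) and Rv1-Luc in FBS (122 ± 33.8) under vehicle, dKO-19M under SNX631 (109 ± 3.65) and dKO-8M under vehicle (105 ± 2.06), each overlapping its neighbour. The lowest were dKO-8M (94.3 ± 1.3), dKO-8 (90.4 ± 0.98), dKO-19 (75.4 ± 2.18) and Rv1-Luc in FBS (69.1 ± 7.82) and in CSS (68.8 ± 0.286), all under SNX631, and the libraries of Rv1-Luc in FBS (64.3 to 78.1 CPM) spanned those of the other lowest groups, dKO-19 and Rv1-Luc in CSS.

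Across the 16 group means on the log2 scale, 9 of the 10 genes followed one another. Pearson's r of a gene with the mean of the other 9 was 0.819 for PHGDH and 0.872 to 0.982 for ASNS, ALDH1L2, SHMT2, MTHFD2, MTHFD1L, PYCR1, PSPH and PSAT1, but 0.147 for ALDH18A1. These are descriptions over groups that share lines and media. Of 14047 other named genes with a mean of at least 1 CPM, those with the profile most like the mean of the 10 (each scaled to unit variance) were GARS1 (r = 0.99), CARS1 (0.98), IARS1 (0.969) and TARS1 (0.967), which load amino acids on tRNA, the transcription factor CEBPB (0.976), LMO4 (0.975), the NKG2D ligand ULBP1 (0.975), the stress-induced SESN2 (0.974), CLIC4 (0.969) and the cationic amino acid transporter SLC7A1 (0.968).

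Few of the remaining genes of the same pathways were called under SNX631 in dKO-8 and dKO-19. Of 26 other serine, glycine and folate genes tested, 1 was called lower in each of dKO-8 and dKO-19 under SNX631 and none higher. Of all tested genes, 1.05% and 1.53% were called lower there. The gene of the 26 called lower was GLDC of the glycine cleavage system in both cases (log2 -0.73 and -0.81). The median of the 26 was 0.0184 and 0.00456. The cytosolic paralogs are among them: SHMT1 was at 0.01 and 0.06, MTHFD1 at 0.07 and 0.07, and the mitochondrial MTHFD2L at -0.22 and -0.18, none of them called, while ALDH1L1 stayed under 1.1 CPM in both lines. In Rv1-WT in CSS against FBS 1 of the 26 was higher (AMT, 0.85), beside 6.09% of all tested genes called higher. There 1 was lower (TYMS of thymidylate synthesis, -0.80), with SHMT1 at -0.29 and MTHFD1 at -0.27.

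Of 9 other asparagine, aspartate and glutamine genes, GPT2, the mitochondrial alanine aminotransferase, was the single call under SNX631. It was at -0.87 in dKO-8 and -0.86 in dKO-19, where 1.05% and 1.53% of all tested genes were called lower. GPT2 was also higher in CSS in Rv1-WT (0.86, beside 6.09% of all tested genes called higher), where ASRGL1 was lower (-0.64). In dKO-8M against dKO-8 under vehicle GPT2 was lower (-0.86), beside 4.07% of all tested genes called lower, and 1 of the 9 was called higher. For CSS against FBS in Rv1-Luc 1 of the 9 was called lower under vehicle and 1 under SNX631. The shares of all tested genes in either direction were 1.49% and 1.51%. Of 7 other proline genes, OAT was called lower in dKO-8 under SNX631 (-0.62, beside 1.05% of all tested genes) and none in dKO-19 (1.53%). PYCR3 was at 0.02 and -0.04 in those comparisons. Comparisons between lines held further calls. In FBS under vehicle 4 of the 7 were lower in Rv1-Luc than in Rv1-WT, beside 9.16% of all tested genes called lower. There 3 of the 26 serine, glycine and folate genes were lower and 1 higher, and 2 of the 9 were lower. In dKO-19M against dKO-19, 2 of the 7 were higher under vehicle and 2 under SNX631 (7.6% and 7.18% of all tested genes in either direction).

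Of 18 ATF4 pathway regulators, 9 were lower and none higher in dKO-8 under SNX631, and 7 lower and none higher in dKO-19. The share of all tested genes called lower was 1.05% in dKO-8 and 1.53% in dKO-19. The 4 with the lowest p in dKO-8 were DDIT3 (-1.46), whose counts were fractional in 58.3% of libraries, EIF4EBP1 (-0.76), CEBPG (-0.67) and ATF3 (-0.60). Under the inhibitor none of the 18 was called in dKO-8M (0.015% of all tested genes in either direction). In dKO-19M 2 were lower, DDIT3 at -0.62 and DDIT4 at -0.68 (0.09% of all tested genes in either direction). Rv1-WT had 2 lower in FBS (2.39% of all tested genes in either direction) and 3 in CSS (1.25% called lower). Rv1-Luc had 2 lower in FBS (1.34% called lower) and 8 in CSS (1.61% called lower). In CSS against FBS under vehicle 11 were higher in Rv1-WT, where 6.09% of all tested genes were called higher. Among the 11 were DDIT3 at 1.63, ATF3 at 1.29, PPP1R15A at 1.39 and CEBPG at 0.99. None was called in Rv1-Luc (1.49% of all tested genes in either direction). In dKO-8M against dKO-8 under vehicle 8 were lower and none higher, beside 4.07% of all tested genes called lower. In dKO-19M against dKO-19, 1 was lower under vehicle (DDIT4, -0.68), and 2 were higher and none lower under SNX631 (SESN2 at 0.81 and CHAC1 at 0.96). The share of all tested genes called in either direction was 7.6% under vehicle and 7.18% under SNX631.

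ATF4 RNA itself had 869, 841 and 817 CPM in dKO-8 under vehicle and 567, 558 and 578 under SNX631 (log2 -0.57, FDR 1.91e-12, under the fold limit). In dKO-19 it went from 798, 753 and 776 to 515, 515 and 519 CPM and was called (log2 -0.59, FDR 3.57e-13). It was called lower in Rv1-Luc in CSS as well (641, 630 and 608 to 424, 400 and 396 CPM, log2 -0.62, FDR 5.52e-14). Elsewhere its log2 value under SNX631 was -0.45 in Rv1-Luc in FBS, -0.16 and -0.11 in Rv1-WT in FBS and CSS, -0.06 in dKO-8M and -0.21 in dKO-19M. In CSS against FBS it stood under vehicle at 0.13 (Rv1-WT) and 0.18 (Rv1-Luc), in dKO-8M against dKO-8 at -0.43, and in dKO-19M against dKO-19 at -0.16. ATF4 is known to be controlled mainly through translation, which these libraries do not measure.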

How the data were processed

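Total RNA was made into directional libraries, 3 biological replicates per group. The deposited table holds expected counts per gene, made by the authors (81.6% of nonzero values were whole). The handling of reads shared between genes is not stated. The submitters' processing notes name FastQC, cutadapt 2.8, STAR 2.7.2b, featureCounts, Subread 2.0.3, GRCh38.p13 and GRCm39. Here the counts were rounded, the 2 transgene rows left out and genes kept by filterByExpr (minimum count 10, minimum total 15). The 16 groups of 48 libraries entered a single edgeR 4.0.16 quasi-likelihood fit (R 4.3.3, robust, TMM factors 0.911 to 1.07, 32 residual degrees of freedom), with Benjamini-Hochberg adjustment over 20009 genes in each of 24 comparisons (17 pairwise, 7 differences of effects). SE is the log2 fold change divided by the root of F. Limits were an FDR of 0.01 and a fold of 1.5, as in the study's methods. Depth was 13.2 to 31.5 M counts. Alternatives were other scalings, DESeq2 1.42.0, no filter, separate fits, a replicate block, other limits, pseudogenes added and single libraries left out. The edgeR step was tested on simulated data. Deviations of same-numbered replicates correlated at -0.0786 to 0.229 (0 of 17 comparisons with every correlation over 0.1), which does not exclude pairing. The genes, lists and comparisons were chosen with earlier results of these data known. All 10 members, their paralogs (1 is not reported here) and ATF4 are named, with up to 4 called genes per list by lowest p and the 10 genes of most similar profile. Exon lengths and positions come from GENCODE v29 and promoters from RefSeq (GRCh38.p14). Genes that share reads with pseudogenes are less certain.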

Additional observations from a re-analysis of the deposited data

Results flagged for a closer look

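The drug response differed by the test of the difference itself between lines with an active and a kinase-dead enzyme for 3 genes in each pair. For CDK8 the log2 difference was -1.01 for ASNS, -0.89 for ALDH1L2 and -0.64 for PSAT1, and for CDK19 it was -0.99, -0.75 and -0.63. ALDH1L2 in the CDK19 pair lost its call without replicate 1 of dKO-19M under vehicle. The response to CSS in Rv1-Luc less that in Rv1-WT was also called, for ALDH1L2 (-0.89), MTHFD2 (-0.74) and ASNS (-0.60). The ASNS call was lost in 5 of 12 fits with 1 library left out, over which its value ran from -0.775 to -0.368. The part of the spread among the Rv1-Luc vehicle libraries in FBS was not tested beyond leaving them out singly.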

How the results depend on the processing

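Counts below are of the 10 genes called. With an FDR of 0.05 and no fold limit, which many more genes pass, the share of all tested genes stands in brackets. SNX631 gave 4 in Rv1-WT in FBS (14.5%), 5 in CSS (26.5%), 9 in dKO-8 (13.5%) and 3 in dKO-19M (2.41%). For Rv1-Luc it was 10 with FBS (20.3%) and 10 with CSS (23.9%). CSS gave 9 in Rv1-WT under vehicle (44.9%) and 9 under SNX631 (40.6%), and 5 (14%) and 2 (12.7%) in Rv1-Luc. Under vehicle and SNX631, dKO-8M against dKO-8 gave 10 (30.5%) and 3 (22.7%), and dKO-19M against dKO-19 gave 6 (33.3%) and 10 (30.7%). The differences of effects gave 8 for dKO-8 less dKO-8M (6.2%), 8 for dKO-19 less dKO-19M (9.87%), 1 for CSS less FBS in Rv1-Luc (0.51%), 1 for Rv1-Luc less Rv1-WT (1.48%) and 7 for the CSS effect of Rv1-Luc less that of Rv1-WT (34.1%). For the settings that follow the share of all tested genes is not given, so their counts do not compare the 10 genes with others. A test against a fold of 1.5 (glmTreat) was read at an FDR under 0.05, not 0.01. It gave 0 for SNX631 in Rv1-WT in CSS and in Rv1-Luc in FBS, 2 in dKO-8 and 3 in dKO-19. For CSS in Rv1-WT it gave 3 under vehicle and 2 under SNX631, and 1 for dKO-8M against dKO-8 under vehicle. The count was 0 for the difference of each active line from its kinase-dead partner and for the CSS effect between sublines. Without a filter on low counts SNX631 gave 1 in Rv1-WT in FBS and 3 in Rv1-Luc in CSS, and the drug difference between sublines gave 1. Fitting only the libraries of a comparison gave 0 and 2 for SNX631 in Rv1-Luc (FBS, CSS), 2 for Rv1-Luc against Rv1-WT and 2 for the CSS difference between sublines. Without the 2 libraries that stood apart, a choice made after seeing the data, SNX631 in Rv1-Luc in CSS gave 2, the drug difference between sublines 1 and their CSS difference 5.

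With single libraries left out, counts ranged from 0 to 1 for SNX631 in Rv1-WT in FBS, 1 to 2 and 1 to 3 in Rv1-Luc (FBS, CSS), 0 to 1 for CSS in Rv1-Luc under vehicle, 0 to 1 for the drug difference between sublines and 2 to 5 for their CSS difference. The call of 1 in Rv1-WT in FBS came without vehicle replicate 2 or SNX631 replicate 1, and that of 1 for CSS in Rv1-Luc without FBS vehicle replicate 2. Of the 46 calls, 39 held in every such fit, 44 with median-of-ratios size factors, 44 with DESeq2 and 45 with pseudogenes added. With library size only 41 held, and with only the libraries of the comparison 37. With glmTreat, read at an FDR under 0.05, 17 held. None changed direction under any alternative. The cause of these shifts was not tested.

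Pairing by replicate number was not established. Every same-number correlation passed 0.1 in 0 of 17 comparisons, which cannot exclude pairing with 3 libraries per group. With the replicate number as a block, 44 of the 46 calls held, and the count for SNX631 in Rv1-Luc was 1 (FBS) and 3 (CSS), and that for the CSS difference between sublines was 2. Levels under 1 CPM, such as ALDH1L1, are too low at this depth to show a difference of moderate size.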
